A study of Mus musculus with 10 samples.

Results

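The genes described here encode regulators that sit between immune receptors and the transcription factor NF-kB: the TRAF adaptors Traf1, Traf2, Traf3, Traf5 and Traf6, the cellular inhibitors of apoptosis Birc2 (cIAP1) and Birc3 (cIAP2), and the ubiquitin-editing protein A20 (Tnfaip3) with its binding partners ABIN-1 (Tnip1) and ABIN-3 (Tnip3). They were chosen by symbol, with earlier results of these data known, and all 10 were present among the 16936 protein-coding genes of the deposited table. RNA was measured in mouse bone marrow-derived macrophages, which were 5 samples given PLG for 24 h and 5 untreated samples. The design text of the series calls the agent human plasminogen, the circulating precursor of the protease plasmin, and the title concerns activation of the receptor Tlr2. GM-CSF (50 ng/mL, over 7 days) was used to derive the cells of both groups, so the untreated cells had been exposed to this cytokine too. The sources used here do not state strain, sex or age of the mice. The labels tie no replicate to a mouse or a culture, and p-values therefore measure the spread between these samples, which may be technical.

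TRAF proteins bind the cytoplasmic tails of TNF receptors or the adaptors of toll-like and interleukin 1 receptors. Most carry a RING domain, and with the cIAP ubiquitin ligases they build ubiquitin chains that recruit the kinases which switch on NF-kB. A20 edits or shields such chains and the ABIN proteins bind both ubiquitin and A20, so this arm restrains the same signal. Several of these genes are textbook NF-kB targets themselves.

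Expression is given as FPKM, read counts scaled to gene length and to the depth of the library. The length counts every annotated exon base of a gene, 3539 for Tnip1 and 10916 for Tnip3. Where a shorter transcript is used the level is understated, so levels of different genes compare only roughly. The reads recovered from the values came to 33547089 to 64214553 per PLG sample and 28426106 to 37680105 per untreated sample. In single samples the 10 genes held 579 to 31340 reads each. Repeat-like gene models (Gm10800, Gm10801 and Gm21738) set PLG 3, PLG 4 and untreated 2 apart, with 0.130%, 0.201% and 0.797% of reads there, against 2.56% to 4.08% in the other PLG samples and 2.13% to 5.92% in the other untreated samples. Without these 3 samples, an alternative chosen after seeing the data, all 10 regulators stayed higher and past the threshold, with log2 fold changes of 0.38 for Traf5 to 2.76 for Traf1. The macrophage genes Lyz2, Cd68 and Csf1r were abundant in both groups. Of 7 listed macrophage markers 1 rose (Adgre1) and 5 fell with PLG, with sums of 2565 to 2777 FPKM in PLG samples and 5842 to 7357 FPKM in untreated samples. Most of the difference between these sums was Lyz2, at 2000 ± 77.9 FPKM with PLG and 5792 ± 561 FPKM without (SD, n = 5 each). Of 6 dendritic cell markers 4 rose (Ccr7, Flt3, Zbtb46, Dpp4) and 2 fell (Itgax, H2-Ab1). Their sums were 912 to 1006 FPKM with PLG and 567 to 692.5 FPKM without. The higher sum came from Ccr7, at 542 ± 27.1 FPKM with PLG and 38.1 ± 10.8 FPKM without (SD, n = 5 each). Flt3, Zbtb46 and Dpp4 reached at most 8.11 FPKM in any sample. Mean Itgax was 156 FPKM with PLG and 270 FPKM without, and mean H2-Ab1 248 FPKM with PLG and 313 FPKM without. All markers listed for T, B and NK cells stayed under 1 FPKM in every sample. Of 4 neutrophil markers tested 2 rose, S100a8 (11.9 ± 2.52 FPKM with PLG and 7.07 ± 1.01 FPKM without) and Camp (2.40 ± 1.01 FPKM with PLG and 0.254 ± 0.351 FPKM without), and 0 fell (limma, also 0 at an unadjusted p of 0.05). The neutrophil markers summed to 16.6 to 26.3 FPKM with PLG and 10.5 to 19.96 FPKM without, with Ly6g and Mpo under 1 FPKM in every sample. Mast cell and basophil markers summed to 1.94 to 3.70 FPKM with PLG and 0.712 to 3.90 FPKM without, and stromal and endothelial markers to 10.1 to 11.8 FPKM with PLG and 5.67 to 7.16 FPKM without. Most of the last difference was Pdgfrb, at 5.18 ± 0.256 FPKM with PLG and 0.253 ± 0.0786 FPKM without (SD, n = 5 each). The one erythroid marker in the table, Klf1, reached at most 0.262 FPKM. Mitochondrially encoded genes took 1.02% to 1.14% of reads with PLG and 1.53% to 1.59% without. The part of these differences in the results below was not tested, and in bulk RNA a change in the share of a cell type cannot be told apart from a change of RNA per cell.

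All 10 regulator genes were higher in PLG samples, from 1.49-fold for Traf5 to 7.94-fold for Traf1 in mean FPKM. Traf1 and Tnfaip3 rose the most, Birc2, Tnip1 and Birc3 came next, and Tnip3, Traf6, Traf2, Traf3 and Traf5 rose less. In limma on log2(FPKM + 1), with Benjamini-Hochberg adjustment over 9997 genes, 10 of 10 passed an adjusted p of 0.05 as higher, where 29.1% of all tested genes passed as higher, 31.3% as lower and 60.4% in either direction. By a fold of 2 or more on that scale 6 of the 10 were higher, against 8.35% of all tested genes. The lowest PLG sample lay above the highest untreated sample for 10 of 10, and for 22.7% of all tested genes, and groups without overlap in either direction made up 47.2%. The median log2 fold change was 1.26 over the 10 genes and -0.02 over all tested genes. All 10 reached the expression filter in the untreated samples alone. In each case the two-sided exact permutation test over the samples gave p = 0.00794, the smallest value that 5 against 5 samples allow.

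**Figure D1:**
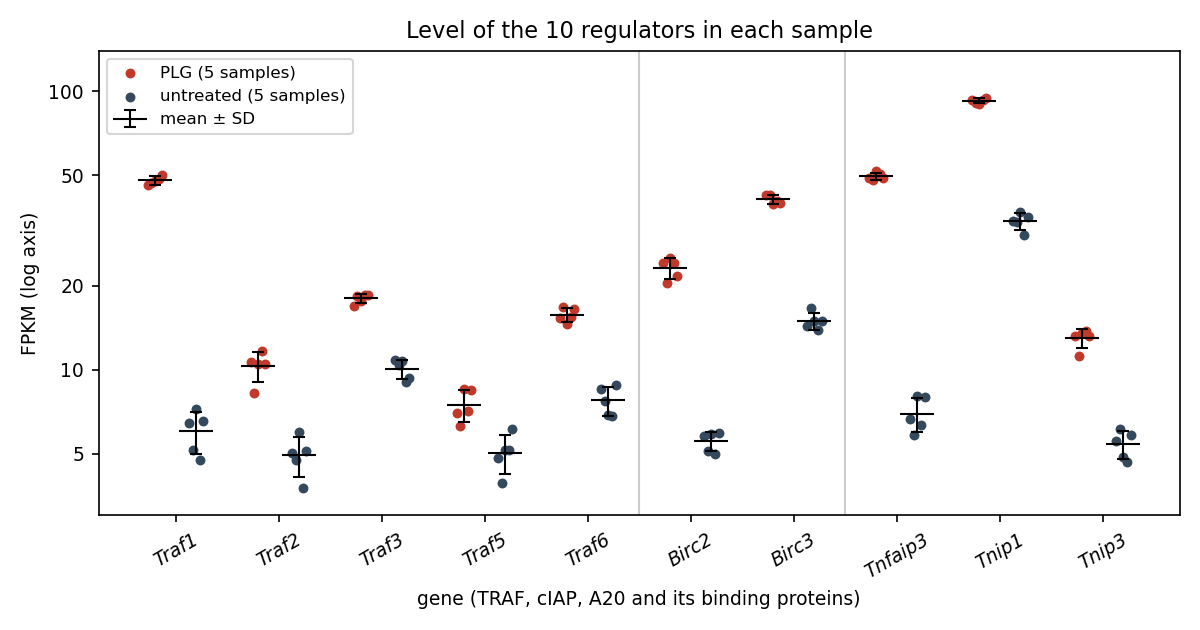
FPKM of each regulator gene (log axis) in the 5 PLG samples and, to the right of them, the 5 untreated samples, with points for samples and bars for mean ± SD. For every gene the PLG points lie above the untreated points. In FPKM the gap between the nearest samples is narrowest for Traf5 (0.155 FPKM) and widest for Tnip1 (53.6 FPKM). On the log axis distance is a ratio, and the groups of Traf1 and Tnfaip3 stand farther apart than those of Tnip1.

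**Figure D2:**
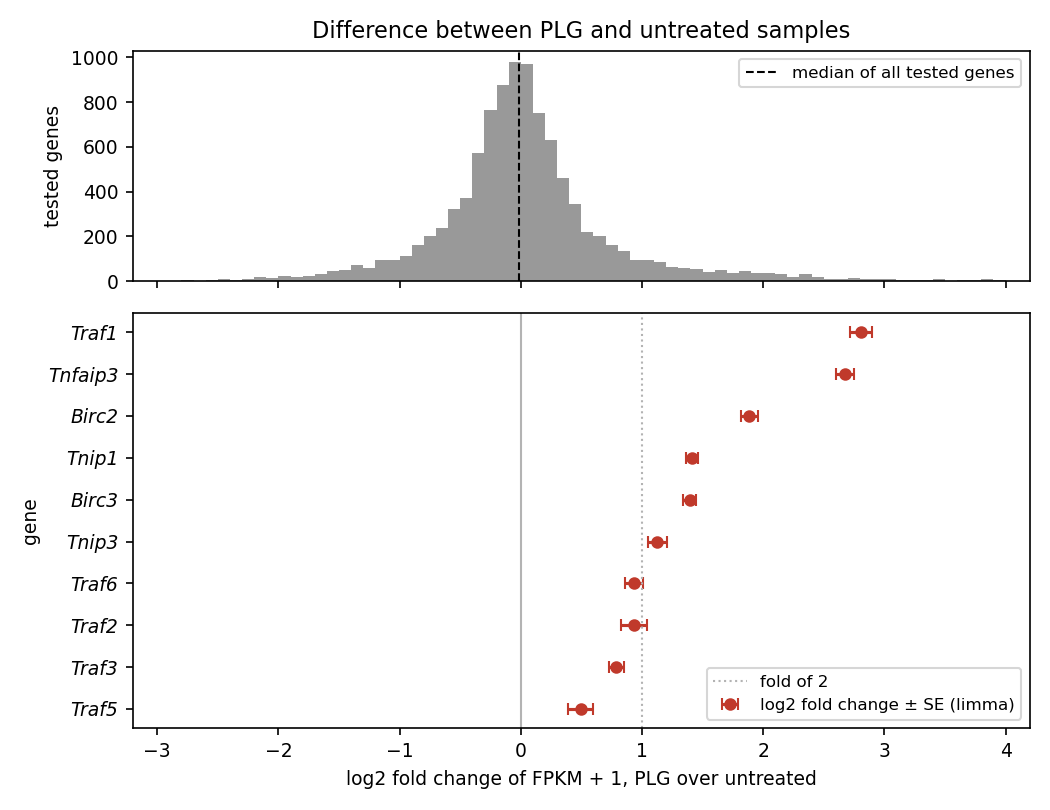
The upper panel counts all 9997 tested genes by log2 fold change of FPKM + 1, PLG over untreated, with their median of -0.02 as a dashed line. The axis is limited to the range shown. The lower panel gives each regulator's log2 fold change with its limma SE, between 0.49 for Traf5 and 2.81 for Traf1.

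The promoter stretches of the members that hold the 10-letter NF-kB consensus are shown here. RefSeq windows on GRCm38.p6, 250 bases before to 50 after the start, matched all 10 genes, and the one nearest to the 5′ end of each gene in the table was searched on both strands. The consensus was found for 4 of the 10 genes (Traf3, Tnfaip3, Tnip1 and Tnip3), against 4.51% of all 32851 windows. That share is per window, and a gene can have several. Traf1, which rose the most, had no match, nor did Birc2 and Birc3, while Traf3 rose less than these. The members were chosen as regulators of NF-kB signalling, so the count is a description. The stretches lie at chr12:111166120-111166369 on the plus strand for Traf3, chr10:19015411-19015547 on the minus strand for Tnfaip3, chr11:54962941-54963190 on the minus strand for Tnip1 and chr6:65590148-65590397 on the plus strand for Tnip3. Each ends at the base before the RefSeq start, reads 5′ to 3′ along the gene, and has the matches in capitals.
Traf3: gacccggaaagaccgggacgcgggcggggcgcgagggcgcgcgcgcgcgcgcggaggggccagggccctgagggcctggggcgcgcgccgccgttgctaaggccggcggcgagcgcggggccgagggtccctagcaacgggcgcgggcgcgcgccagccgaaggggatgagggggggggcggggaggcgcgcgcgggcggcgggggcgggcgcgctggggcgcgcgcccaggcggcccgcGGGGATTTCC
Tnfaip3: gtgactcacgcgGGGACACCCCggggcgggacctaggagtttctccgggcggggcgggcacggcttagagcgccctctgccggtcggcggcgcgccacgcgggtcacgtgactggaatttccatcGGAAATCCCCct
Tnip1: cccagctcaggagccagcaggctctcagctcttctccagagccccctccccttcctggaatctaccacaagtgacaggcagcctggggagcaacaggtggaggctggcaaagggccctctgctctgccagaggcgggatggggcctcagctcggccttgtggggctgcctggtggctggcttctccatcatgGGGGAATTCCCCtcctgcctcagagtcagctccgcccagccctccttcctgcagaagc
Tnip3: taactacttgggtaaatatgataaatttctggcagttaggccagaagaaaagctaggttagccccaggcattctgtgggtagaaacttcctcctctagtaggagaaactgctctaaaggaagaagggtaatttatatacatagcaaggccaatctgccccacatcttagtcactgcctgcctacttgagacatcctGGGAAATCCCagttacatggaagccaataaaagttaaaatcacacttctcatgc

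Relative to the start, the matches begin at -10 in Traf3, at -125 and -12 in Tnfaip3 and at -54 in Tnip3. In Tnip1 3 matches overlap in one stretch that begins at -58. The AP-1 motif TGANTCA was found in the window of Tnfaip3, at -136 (tgactca in the stretch above), and in no other of the 10, against 7.81% of all windows. For Tnip3 the RefSeq start lies 65085 bases inside the gene model of the table, and for Tnfaip3 247 bases inside it. These matches describe letters in a short window and show neither binding nor use.

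Among the TRAF genes the largest change was that of Traf1 (ENSMUSG00000026875.14, chromosome 2, 34941750 to 34961772, minus strand). Its product lacks the RING domain of the other TRAF members described here and forms complexes with Traf2 and the cIAPs. Traf1 was at 46.0, 46.7, 47.8, 48.6 and 50.2 FPKM in PLG samples 1 to 5, against 6.45, 5.17, 7.22, 4.76 and 6.57 FPKM in untreated samples 1 to 5. The groups were far apart, with 38.7 FPKM between their nearest samples. The means were 47.9 ± 1.66 FPKM with PLG and 6.03 ± 1.03 FPKM without (SD, n = 5 each). This is a difference of 2.81 ± 0.0884 (SE) on the log2 scale, with a limma adjusted p = 8.94e-12. Only 1.11% of the tested genes had a larger rise.

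Traf2, the adaptor that brings cIAPs to TNF receptors, was at 10.6, 8.22, 10.4, 11.7 and 10.5 FPKM with PLG and at 5.02, 4.75, 6.0, 3.76 and 5.11 FPKM without. PLG 2 was the lowest treated sample and untreated 3 the highest untreated one, and they stayed 2.23 FPKM apart. Traf2 averaged 10.3 ± 1.26 FPKM in PLG samples and 4.93 ± 0.803 FPKM in untreated samples, or 0.93 ± 0.106 (SE) in log2 fold change, limma adjusted p = 3.95e-06. Its close relative Traf5 (chromosome 1, 191997205 to 192092559) changed the least. Traf5 was at 7.01, 6.30, 8.56, 7.09 and 8.43 FPKM with PLG and at 4.81, 3.91, 5.13, 5.14 and 6.14 FPKM without. The groups nearly touched, since PLG 2 and untreated 5 were 0.155 FPKM apart. The log2 fold change of Traf5 was 0.49 ± 0.105 (SE, adjusted p = 0.00109, limma). In the annotation 4.49% of its exon bases are shared with Gm26879, an RNA on the opposite strand, and without a stated strand setting reads there cannot be assigned to one of them.

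Traf3 takes part in the complex that keeps the kinase NIK low and in the signal from toll-like receptors to type I interferon. It was at 17.0, 18.4, 17.7, 18.5 and 18.6 FPKM in PLG samples and 10.8, 10.4, 10.7, 9.04 and 9.32 FPKM in untreated samples. The groups did not overlap, and the log2 fold change was 0.79 ± 0.0614 (SE, adjusted p = 8.13e-08, limma). Traf6, the ubiquitin ligase downstream of Myd88 and the IRAK kinases, was at 15.3, 16.8, 14.6, 15.4 and 16.5 FPKM with PLG and 8.55, 7.75, 6.91, 6.82 and 8.84 FPKM without. Its mean was 2.02-fold higher with PLG, with a log2 fold change of 0.94 ± 0.0760 (SE, adjusted p = 1.22e-07, limma).

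The TRAF genes thus changed by unequal amounts, and their proportions differed between groups. Their FPKM summed to 99.4 ± 3.49 with PLG and 33.8 ± 2.94 without (SD, n = 5 each). Traf1 made up 47.9% to 48.4% of that sum in PLG samples and 16.1% to 20.1% in untreated samples. Traf3, the largest part in untreated samples at 25.9% to 32.5%, made up 17.7% to 19.1% with PLG. The shares of Traf6 were 14.7% to 17.4% with PLG and 19.2% to 24.6% without. The ratio of Traf1 to Traf2 had a geometric mean of 4.68 in PLG samples and 1.22 in untreated samples, a difference of 1.94 on the log2 scale. It was higher in 5 of 5 PLG samples than in any untreated sample (two-sided exact permutation p = 0.00794, 0.00952 when adjusted over the 6 ratios and sums compared).

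The cIAP genes lie next to each other on chromosome 9, Birc2 at 7818227 to 7837064 and Birc3 at 7848699 to 7873186, both on the minus strand and 11634 bases apart. Their products are ubiquitin ligases that modify Ripk1 at TNF receptors and, with Traf2 and Traf3, mark NIK for breakdown. Birc2 was at 24.2, 20.5, 25.2, 24.3 and 21.7 FPKM with PLG and 5.80, 5.13, 5.88, 5.0 and 5.92 FPKM without. The untreated samples lay close together, and every PLG sample was at least 14.6 FPKM above them. Birc2 averaged 23.2 ± 1.96 FPKM with PLG and 5.55 ± 0.446 FPKM without, 4.18-fold higher, with a log2 fold change of 1.88 ± 0.0713 (SE, adjusted p = 5.05e-11, limma).

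Birc3 was at 42.4, 42.5, 39.3, 40.4 and 39.9 FPKM with PLG and 14.4, 16.7, 14.9, 13.8 and 14.9 FPKM without. It was the more abundant of the pair in every sample of both groups. Its rise, 2.74-fold in mean FPKM (1.39 ± 0.0539, SE, in log2 fold change, adjusted p = 6.23e-11, limma), was smaller than that of Birc2. The ratio of Birc3 to Birc2 accordingly had a geometric mean of 1.77 with PLG and 2.699 without. By sample it was 1.75, 2.07, 1.56, 1.67 and 1.83 with PLG and 2.48, 3.25, 2.54, 2.77 and 2.52 without, with no overlap (log2 difference -0.61, two-sided exact permutation p = 0.00794, adjusted p = 0.00952 over the 6 comparisons). The summed FPKM of both genes was 61.6 to 66.6 FPKM with PLG and 18.8 to 21.8 FPKM without. Of the 50-base words of their transcripts 65 were common to both genes, out of 4579 for Birc2 and 5079 for Birc3, and 7.56% of those of Birc3 occurred in another gene's transcript, most of them in Gm7019. The sources used here do not say how reads that match several genes were treated.

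**Figure D3:**
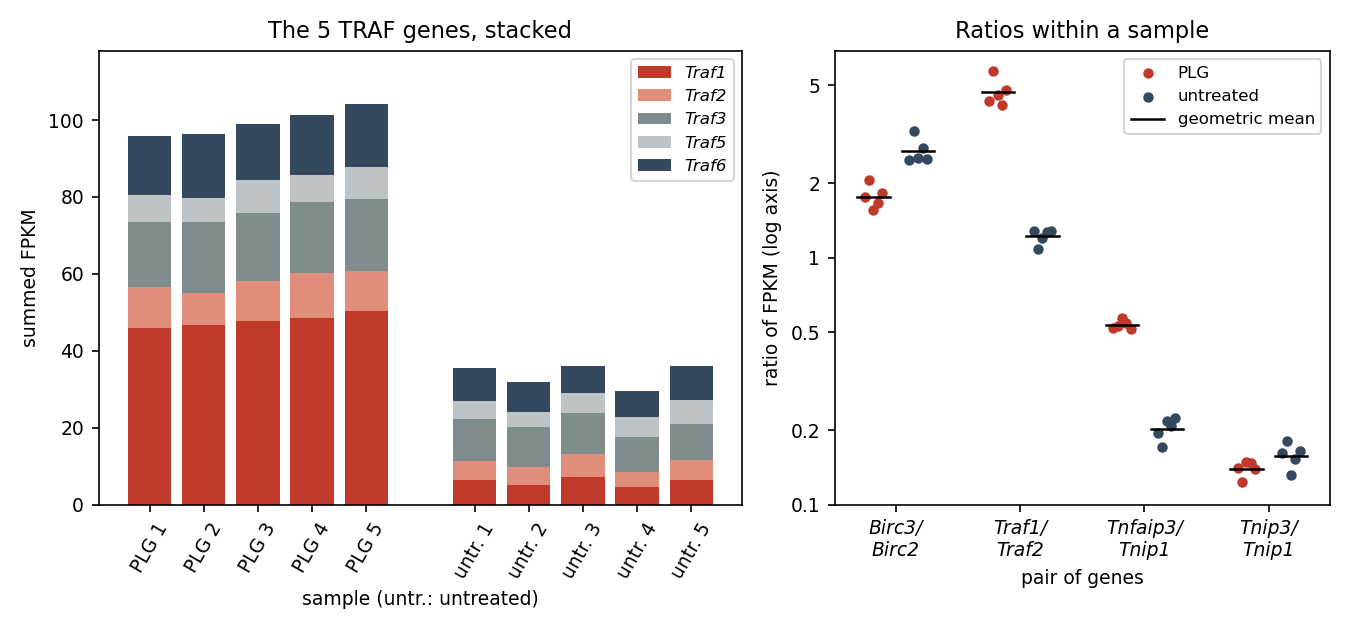
Left, FPKM of the 5 TRAF genes stacked for each PLG and untreated sample, with sums of 95.9 to 104 with PLG and 29.5 to 36.0 without. Right, ratios of FPKM within a sample (log axis), points for samples and lines for geometric means. The Traf1/Traf2 and Tnfaip3/Tnip1 ratios are higher and the Birc3/Birc2 ratio lower in PLG samples, and the Tnip3/Tnip1 ratios overlap.

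A20 is the best known brake on this pathway, and its gene Tnfaip3 (ENSMUSG00000019850.11, chromosome 10, 19000910 to 19015657, minus strand) came second after Traf1 in log2 fold change. Tnfaip3 was at 48.7, 47.9, 51.6, 50.7 and 48.96 FPKM in PLG samples and 6.65, 5.83, 8.02, 6.34 and 7.96 FPKM in untreated samples. The nearest samples of the groups were 39.9 FPKM apart. The log2 fold change was 2.68 ± 0.0762 (SE, adjusted p = 3.63e-12, limma), and the mean was 7.12-fold higher with PLG.

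Tnip1, whose product ABIN-1 binds ubiquitin chains and A20, was the most abundant of the regulators in both groups. It was at 93.5, 90.8, 90.5, 93.3 and 94.7 FPKM with PLG and 34.2, 34.0, 36.9, 30.4 and 35.3 FPKM without, a log2 fold change of 1.41 ± 0.0504 (SE, adjusted p = 2.82e-11, limma). In mean FPKM this was the largest difference of the 10 genes, 58.4 FPKM. Tnip3, which encodes the related ABIN-3, was at 13.2, 11.2, 13.5, 13.7 and 13.2 FPKM with PLG and 5.52, 6.14, 4.86, 4.67 and 5.85 FPKM without. PLG 2 stood below the other treated samples but above all untreated ones, and the log2 fold change was 1.13 ± 0.0805 (SE, adjusted p = 3.28e-08, limma).

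Set against Tnip1, A20 rose and no change passed for Tnip3. The ratio of Tnip3 to Tnip1 was 0.124 to 0.149 with PLG and 0.132 to 0.181 without, which overlapped and did not pass (log2 difference -0.17, two-sided exact permutation p = 0.0952, adjusted p = 0.0952). It passed as lower when untreated 3 was left out (log2 difference -0.24, adjusted p = 0.00794). The ratio of Tnfaip3 to Tnip1 had a geometric mean of 0.535 with PLG and 0.203 without, higher in 5 of 5 PLG samples (log2 difference 1.40, exact permutation p = 0.00794, adjusted p = 0.00952).

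The order of the levels, in FPKM over all annotated exon bases, also differed between groups. In PLG samples it ran Tnip1, Tnfaip3, Traf1, Birc3, Birc2, Traf3, Traf6, Tnip3, Traf2 and Traf5, and the only neighbours whose samples overlapped were Tnfaip3 with Traf1, Tnip3 with Traf2 and Traf2 with Traf5. In untreated samples Tnip1, Birc3, Traf3 and Traf6 led in that order without overlap between neighbours. The other 6, from Tnfaip3 at 6.96 FPKM to Traf2 at 4.93 FPKM in the mean, overlapped each with the next, and Traf6 overlapped with Tnfaip3. Ranked by mean FPKM among the 9997 tested genes, Traf1 was in place 783 with PLG and 5477 without, and Tnfaip3 in place 753 with PLG and 5017 without.

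Within groups the samples varied by 1.99% (Tnip1) to 13.1% (Traf5) of the mean with PLG and by 6.97% (Tnip1) to 17.1% (Traf1) without. Deviations from the group means over the 10 samples, which share a library and its depth for all genes, were positively correlated for 36 of the 45 gene pairs (median Pearson r = 0.30). The values ran between -0.69 for Traf5 with Birc3 and 0.87 for Traf1 with Tnip1.

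Across the 10 samples many genes followed the regulators closely, since the difference between groups dominates. For Traf1 the chemokine gene Cxcl2 and Sema7a were most alike (Pearson r = 0.999 for both), and 267 of 8521 candidate genes exceeded r = 0.99. Tnfaip3 was nearest to H2-Q7 and Cxcl2 (0.999 for both), a class I gene with close copies and a chemokine gene. Birc2 was nearest to Cd200 and Cxcl1 (0.998 for both) and Birc3 to Nfkbiz, a nuclear IkB protein, and the inflammasome sensor Nlrp3 (0.998 for both). Tnip1 was nearest to Dennd4a and Ankrd33b (0.999 for both), and Tnip3 to the peroxiredoxin Prdx6 and Zwint (0.995 for both). For Tnip3 46 candidates exceeded r = 0.99.

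The genes that work with these regulators were read from 10 lists with 75 genes, of which 69 were tested. Of these 37 were higher with PLG, 17 lower and 15 did not pass, with a median log2 fold change of 0.19. Over all tested genes 29.1% were called higher and 31.3% lower, with a median of -0.02, and each list's counts are to be read against these shares. The lists were chosen with earlier results of these data known, so this reading is a description and not a test. Genes beyond the naming rule are named here, after their values were seen, to complete small counts. Among TNF receptor family members that recruit TRAFs, 6 of 10 tested were higher and 4 lower (median 0.95). Cd40 and Tnfrsf8 did not reach the expression filter in the untreated samples alone, so their place in this count rests on the PLG samples. With a filter of 5 FPKM, 4 of 8 tested were higher and 4 lower (median 0.39). Cd40, the receptor for T cell help, was at 27.7 ± 3.62 FPKM with PLG and 1.08 ± 0.310 FPKM without (SD, n = 5 each). The costimulatory receptor gene Tnfrsf9 was at 86.7 ± 6.09 FPKM with PLG and 8.03 ± 2.44 FPKM without, and the TNF receptor gene Tnfrsf1b at 348 ± 15.9 FPKM with PLG and 136.5 ± 9.70 FPKM without. Tnfrsf11a, Tnfrsf8 and Tnfrsf4 were higher too, while Tnfrsf13b, Tnfrsf14, Tnfrsf1a and Ltbr were lower. The other main TNF receptor, Tnfrsf1a, thus moved opposite to Tnfrsf1b, with 40.7 ± 2.14 FPKM in PLG samples and 52.1 ± 2.60 FPKM in untreated samples.

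RNA of all 3 listed genes of the noncanonical pathway, which the complex of Traf2, Traf3 and cIAPs restrains, was higher (median 2.40). The kinase gene Chuk, which also serves this pathway, was placed in the IKK list below. Its log2 fold change was only 0.19, and its call was lost in 7 alternatives. Nfkb2 was at 105 ± 2.62 FPKM with PLG and 19.0 ± 2.73 FPKM without. Relb, its partner subunit, was at 52.5 ± 3.56 FPKM with PLG and 9.21 ± 1.78 FPKM without. Map3k14, the gene of NIK, was at 31.5 ± 1.72 FPKM with PLG and 8.98 ± 1.37 FPKM without. Protein levels and activity of the pathway were not measured.

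Of 7 tested interferon kinases and adaptors linked to Traf3, 5 were higher and 2 lower (median 0.56). Irf7, an interferon regulatory factor, was at 158 ± 7.98 FPKM with PLG and 4.502 ± 1.26 FPKM without, and Ikbke at 19.3 ± 1.17 FPKM with PLG and 9.35 ± 0.904 FPKM without. Tank, Azi2 and Tbk1 were higher as well, and Tbkbp1 (6.15 ± 0.321 FPKM with PLG and 12.2 ± 0.897 FPKM without) and Irf3 lower. Of 11 partners of A20 and other ubiquitin-editing genes 7 were higher and 2 lower (median 0.56). By p-value Usp18 (52.6 ± 4.601 FPKM with PLG and 8.97 ± 1.98 FPKM without), Peli1 and Usp25 came first. The product of Usp18 acts mainly on the ubiquitin-like protein ISG15 rather than on ubiquitin. The A20 partners Tax1bp1 (log2 fold change 0.28) and Rnf11 (0.56) were higher and Itch (-0.33), a further partner, was lower, as was Peli2. Tnip2, which encodes ABIN-2, did not pass, at 9.43 ± 1.17 FPKM with PLG and 8.66 ± 1.72 FPKM without, nor did Zranb1.

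Lists of the shared signalling core had medians of 0.09 to 0.19, smaller than those of the lists above, against -0.02 over all tested genes. Of 6 genes of linear ubiquitin assembly and removal 3 were higher and 0 lower (median 0.12). Rnf31, the catalytic subunit of the ligase, was at 16.5 ± 1.04 FPKM with PLG and 7.45 ± 0.950 FPKM without, and its partner Rbck1 did not pass, at 17.4 ± 0.875 FPKM with PLG and 17.3 ± 1.18 FPKM without. Cyld, a deubiquitinase, and Spata2 were the other 2 higher genes, and Sharpin and Otulin did not pass. Of 7 TAK1 and IKK genes 4 were higher (Ikbkb, Tab2, Ikbkg and Chuk), Tab1 was lower, and Map3k7 and Tab3 did not pass (median 0.19). Ikbkb was at 10.8 ± 0.315 FPKM with PLG and 5.61 ± 0.345 FPKM without, and Map3k7, the gene of TAK1, at 9.31 ± 0.291 FPKM with PLG and 10.2 ± 0.872 FPKM without. Of 8 receptor-proximal genes Irak2, Tifa and Ticam1 were higher, Irak4, Irak1 and Ripk1 lower, and Tradd and Myd88 did not pass (median 0.10). Myd88, the adaptor of Tlr2, was at 23.7 ± 1.296 FPKM with PLG and 22.8 ± 1.497 FPKM without. Of 4 tested ubiquitin-conjugating enzymes Ube2d2a was higher and Ube2d1 lower, and Ube2d3 and Ube2n did not pass (median 0.09).

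Of 6 other TRAF-related genes tested, Traf4, Trafd1 and Traf3ip2 were higher, Traf3ip3 lower, and Traf7 and Traf3ip1 did not pass (median 0.33). Traf4, Traf3ip2 and Traf3ip1 did not reach the expression filter in the untreated samples alone. With a filter of 5 FPKM only 2 genes of this list were tested, and 1 was higher. Traf4 was at 2.58 ± 0.451 FPKM with PLG and 0.790 ± 0.389 FPKM without, and Traf7 at 12.5 ± 0.961 FPKM with PLG and 12.9 ± 0.546 FPKM without. Of 7 other IAP family members and antagonists Naip2 and Htra2 were higher and Birc5, Naip6 and Naip5 lower. Xiap and Birc6 did not pass, and the list median was -0.09. Over all tested genes the shares were 29.1% higher and 31.3% lower. Birc5 reached the expression filter only through the untreated samples, as it was at most 0.371 FPKM with PLG. Xiap, the third widely studied IAP, was at 13.2 ± 1.18 FPKM with PLG and 13.5 ± 1.05 FPKM without. Naip2 was at 40.5 ± 2.35 FPKM with PLG and 21.9 ± 1.08 FPKM without, although Naip genes are close copies and their reads may be divided among them.

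Of the 54 calls among these lists 42 stood in every alternative run and none passed in the other direction. Calls of 6 genes were lost when 1 sample was left out and in other settings too. That of Ticam1 was lost without PLG 1, 2, 4 or 5 or untreated 2, 3, 4 or 5 (log2 fold change 0.14 to 0.16), and that of Ube2d2a without PLG 1, 3, 4 or 5 or untreated 1, 3, 4 or 5 (0.17 to 0.24). That of Spata2 was lost without PLG 2, 4 or 5 or untreated 2 (0.13 to 0.16), and that of Chuk without PLG 3 or 4 or untreated 5 (0.16 to 0.17). That of Irf3 was lost without PLG 1, 2, 3 or 4 or untreated 1, 4 or 5 (-0.17 to -0.14), and that of Traf3ip3 without PLG 2 or 3 or untreated 1 or 3 (-0.30 to -0.27). In settings other than leaving out 1 sample, the call was lost in 8 for Ticam1, 6 each for Spata2 and Ube2d2a, 5 for Irf3, 4 for Chuk and 1 for Traf3ip3.

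**Figure D4:**
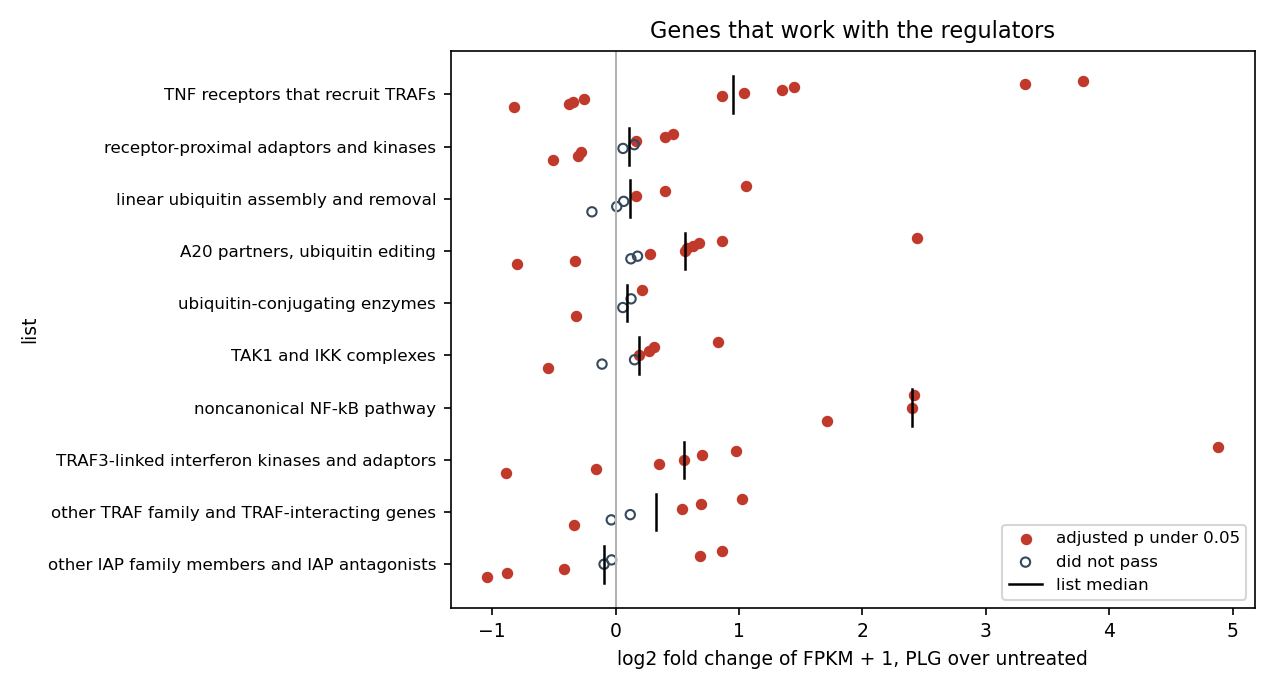
Log2 fold change of FPKM + 1, PLG over untreated, for the 69 tested genes of the 10 lists, each point a gene. Filled points passed an adjusted p of 0.05, open points did not, and lines mark list medians, from -0.09 for the other IAP genes to 2.40 for the noncanonical pathway.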

How the data were processed

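The deposited table gives FPKM per protein-coding gene, made by the authors, with gene lengths and GRCm38 coordinates per the file headers; the 10 genes have the same coordinates and exon lengths in GENCODE M21. Tools named in the submitters' processing notes, with no role or order, are DESeq2 (1.24.0), STAR (2.7.3a), cutadapt (2.10), featureCounts (2.0.0) and FastQC (0.11.9). Samples were grouped by title. FPKM times length fell on whole multiples of 1 step in each sample, 100% of tested values within 0.1 read, which gave the reads behind each value, and at a step of 2 reads at most 50.5% were whole. Values were analysed as log2(FPKM + 1), which understates changes of low genes, for genes with 1 FPKM in at least 5 of 10 samples, in limma 3.58.1 (R 4.3.3) with an intensity trend, treatment as the only term and Benjamini-Hochberg adjustment over 9997 genes. On simulated data of this comparison with 9997 genes it recovered 46% of 50 genes changed 1.25-fold and 96% of 50 changed 2-fold, and called 15 of 9797 unchanged genes. The simulated noise was independent between genes, and far fewer genes were changed than the 60.4% called in the data. These rates may therefore not carry over to the data. Ratios and sums were compared by two-sided exact permutation tests. Named genes were the members, from each partner list up to 3 genes with the smallest p among those that passed and the most abundant that did not, and for each member with a fold of 2 or more the 2 genes most correlated with it. Alternatives were other pseudocounts, filters, scalings and moderation, a replicate block, voom on the recovered reads and leaving out samples. Members and lists were chosen with earlier results of these data known.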

Additional observations from a re-analysis of the deposited data

Results flagged for a closer look

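Tnip3 in PLG 2 was at 11.2 FPKM, below the other PLG samples at 13.2 to 13.7 FPKM. Its gap to the next sample made up 0.778 of the range of the 5 PLG samples, above Dixon's critical value of 0.71. Of 32 groups of values examined this was the 1 that did so, and chance flags about 1 in 20.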

How the results depend on the processing

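All 10 regulators stayed higher and past the threshold in each of 23 alternatives, Traf5 with an adjusted p of at most 0.0120. Genes called higher numbered 2185 to 3360 and lower 2133 to 3645. Replicate numbers did not pair the samples (correlation of deviations -0.12 to 0.10 for the same number), and the replicate block called 2797 genes higher and 2988 lower. With a replicate block by exact sign-flip permutation, the ratios and sums kept their values (log2 Birc3/Birc2 -0.61, Traf1/Traf2 1.94, Tnfaip3/Tnip1 1.40, summed cIAP difference 43.6 FPKM, TRAF difference 65.6 FPKM) but had adjusted p = 0.075, since 5 pairs cannot give less than p = 0.0625. The log2 difference of Tnip3/Tnip1 ran from -0.24 (without untreated 3, past the threshold) to -0.13 with 1 sample left out. Without PLG 3, PLG 4 and untreated 2 every ratio and sum stayed on its side of the threshold (exact permutation, adjusted p = 0.0343, and 0.143 for Tnip3/Tnip1), and Birc3/Birc2 was at -0.45.

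Log2 fold changes of genes that had not passed changed sign as follows, and the cause was not tested. Under quantile normalization Myd88 was at -0.033 and Rbck1 at -0.073. With repeat-like gene models left out, chosen after seeing the data, Myd88 was at -0.0043, Rbck1 at -0.054 and Ube2n at -0.0019. With PLG 3, PLG 4 and untreated 2, the samples lowest in those models, left out, also chosen then, Sharpin was at -0.020. Voom gave Rbck1 -0.0048. Under a common sum Traf7 was at 0.010 and Xiap at 0.013, and under median-of-ratios scaling Traf7 at 0.0033 and Xiap at 0.0063. With 1 sample left out Rbck1 ran from -0.0076 to 0.042, Traf7 from -0.058 to 0.0042, Traf3ip1 from -0.0079 to 0.17 and Xiap from -0.068 to 0.0074. Under a common sum 11 of the 54 partner calls were lost, those of Ltbr (log2 fold change -0.21), Ripk1 (-0.24), Irak1 (-0.26), Itch (-0.29), Irf3 (-0.11), Traf3ip3 (-0.30), Ticam1 (0.21), Spata2 (0.21), Ube2d2a (0.25), Chuk (0.24) and Ikbkg (0.31). Without the 3 samples those of Tnfrsf4 (0.74), Ticam1, Spata2, Ube2d2a, Chuk and Irf3 were lost. The replicate block lost Ticam1, Spata2, Ube2d2a and Irf3, voom Ticam1, Spata2 and Irf3, quantile normalization Ticam1, Spata2 and Chuk, and leaving out repeat-like models Ticam1, Spata2, Ube2d2a and Chuk. Median-of-ratios scaling lost Irf3, no filter Ticam1 and Ube2d2a, no trend Ticam1, and robust fitting Ube2d2a. Birc6 and Map3k7 passed as lower under quantile normalization and with the repeat-like models left out, and Birc6 also with voom. Tradd and Ube2d3 passed under median-of-ratios scaling, and Otulin passed as lower under quantile normalization, with the repeat-like models left out and with the 3 samples left out. Tradd also passed without untreated 2 or 5, Otulin without PLG 3 or untreated 2, and Ube2d3 without untreated 2.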
